A study of Mus musculus with 6 samples.

Results

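The enzymes described here make serine and move its one-carbon unit through folate, and they were read in mouse CD8+ T cells with and without acetate. They were chosen by name: 3 enzymes of serine synthesis (Phgdh, Psat1, Psph), 2 cytosolic folate enzymes (Shmt1, Mthfd1) and 4 mitochondrial folate enzymes (Shmt2, Mthfd2, Mthfd1l, Aldh1l2). These 9 genes stand among 41095 gene rows in the deposited table, and 8 of them were matched by symbol. Phgdh was read from the protein-coding row MGP_C57BL6NJ_G0028069, which carries no symbol and whose description in the table names the Phgdh protein.

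The tested cells were wild-type splenic CD8+ T cells that received the short-chain fatty acid acetate for 48 h at a concentration read as 5 mmol/L, because the label writes its unit in an unusual way. The controls were wild-type splenic CD8+ T cells labelled as untreated. Both groups spent 72 h on plates bearing antibodies to CD3 (5 µg/mL) and CD28 (2 µg/mL), which activate T cells, and their medium held 30 U/mL of IL-2, non-essential amino acids, pyruvate and 2-mercaptoethanol. There were 3 libraries per group, with 31098394 to 39140711 reads recovered from each. The design text words the contrast as before against after treatment, whereas the culture protocol is the same for all 6 libraries. Nothing in the labels says that replicate libraries derive from different animals or cultures, so p-values measure the spread between these libraries, which may be technical.

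Serine is built from a glycolytic intermediate in 3 steps, by phosphoglycerate dehydrogenase, phosphoserine aminotransferase and phosphoserine phosphatase. Serine hydroxymethyltransferases then move a carbon from serine to tetrahydrofolate and release glycine, in the cytosol (Shmt1) or in mitochondria (Shmt2). The mitochondrial arm oxidises that carbon to formate, which leaves for the cytosol, where Mthfd1 attaches it to folate again for purine and thymidylate synthesis. Activated T cells are known to raise these enzymes as they prepare to divide, and in mammalian cells the stress-responsive transcription factor ATF4 is known to induce the serine synthesis and mitochondrial folate genes.

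With acetate the cytosolic and mitochondrial arms moved in opposite directions. Both cytosolic folate enzymes rose, Shmt1 by 45.4% and Mthfd1 by 20.8%, while 3 of 4 mitochondrial enzymes fell, Shmt2 by 11.9%, Mthfd2 by 26.4% and Aldh1l2 by 73.4%. The fourth, Mthfd1l, did not pass the test. All 3 serine synthesis genes fell, Psat1 by 20.7%, Phgdh by 12.1% and Psph by 9.54%, although the calls of Phgdh and Psph were lost when some single libraries were left out. Values are FPKM, fragments per kilobase of gene, scaled to the fragments of the library. Counts recovered from them are called reads throughout, and how a read pair was counted is not given in the sources used here. Percent changes compare mean FPKM of the 3 acetate libraries with that of the 3 control libraries.

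Calls came from limma on log2(FPKM + 1) over the 10867 genes that averaged 1 FPKM or more, at an adjusted p below 0.05. Of all genes tested, 38.9% were called, 22.0% as higher and 16.9% as lower with acetate, against 2 of 9 members higher and 6 of 9 lower. The median log2 change was 0.39 over the 2 cytosolic enzymes, -0.31 over the 4 mitochondrial ones, -0.19 over the 3 serine synthesis genes and 0.02 over all genes tested. All 9 members passed the filter on low values, Aldh1l2 through its control libraries, so its presence among the tested genes required the control level. The acetate values lay all above the control values for 2 of 9 members and all below for 6 of 9, against 28.8% and 23.1% of all genes tested, or 51.9% in either direction.

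As checks on the cells, the CD8 T cell genes Cd8a, Cd8b1, Cd3d, Cd3e, Trac and Cd2 summed to 1241 to 1303 FPKM in acetate libraries and 1211 to 1264 FPKM in control libraries. Within this sum Cd8a was called higher, at 352.1 ± 12.3 FPKM with acetate and 308.4 ± 1.57 FPKM in controls (limma adjusted p = 0.00864). Cd8b1 was at 300.8 ± 10.1 FPKM with acetate and 321.2 ± 11.8 FPKM in controls, and it and the others did not pass. Of 4 B cell markers 1 reached 1 FPKM in any library, Ighm, at 73.6 ± 4.79 FPKM with acetate and 53.5 ± 2.68 FPKM in controls (SD, n = 3 each), while Ms4a1 and Pax5 had means of at most 0.0246 FPKM and Cd79a averaged 0.409 ± 0.212 FPKM with acetate and 0.375 ± 0.0785 FPKM in controls. Of 6 listed myeloid markers 5 had a row of that symbol, and Lyz2 had none. These 5 summed to 0.605 to 1.021 FPKM in acetate libraries and 0.695 to 1.024 FPKM in control libraries. The natural killer receptor genes Ncr1 and Klrb1c had means of at most 0.0539 FPKM. Eomes, also on the natural killer list, averaged 42.5 ± 0.725 FPKM with acetate and 40.5 ± 1.58 FPKM in controls. Among CD4 lineage markers Cd4 averaged 0.944 ± 0.138 FPKM with acetate and 0.641 ± 0.119 FPKM in controls, and the transcription factor gene Zbtb7b averaged 7.12 ± 0.388 FPKM with acetate and 13.0 ± 0.17 FPKM in controls. The part of these marker genes in the results was not tested. Fewer cells of a type and less RNA per cell cannot be told apart in bulk RNA.

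The proximal promoters of 3 members are shown to set genes that fell, Psat1 and Mthfd2, beside a gene that rose, Shmt1. Each is the 120 bases before the RefSeq start site in GRCm38.p6, on the gene's own strand, with CCAAT, the core of the box bound by the general promoter factor NF-Y, or its reverse complement ATTGG in capitals. Psat1 lies at chr19:15925060-15925179, Mthfd2 at chr6:83317605-83317724 and Shmt1 at chr11:60811266-60811385, all on the minus strand.
Psat1: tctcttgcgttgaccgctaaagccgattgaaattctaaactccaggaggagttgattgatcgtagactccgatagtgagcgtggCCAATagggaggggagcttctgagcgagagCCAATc
Mthfd2: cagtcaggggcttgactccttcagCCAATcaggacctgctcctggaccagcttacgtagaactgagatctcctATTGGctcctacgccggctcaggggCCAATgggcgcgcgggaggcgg
Shmt1: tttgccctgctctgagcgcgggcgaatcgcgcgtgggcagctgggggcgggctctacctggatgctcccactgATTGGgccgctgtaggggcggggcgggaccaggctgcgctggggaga

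RefSeq windows of 250 bases before to 50 after a start site were found for 8 of the 9 members, 9 windows in all because Psat1 has 2. CCAAT, searched on both strands, was in 6 of the 9 windows and in 37.4% of all 32851 windows. The 6 were windows of Phgdh, Psat1, Psph, Mthfd2, Shmt1 and Mthfd1. Those windows belong to genes that fell and to genes that rose. The letters TGATGNAA, which hold the core of the composite element bound by ATF4 with C/EBP factors, were in 0 of the 9 windows and in 3.97% of all windows. The E-box CACGTG, which MYC binds, was in 0 of the 9 and in 7.15% of all. Both shares are low, so 0 of 9 windows does not set the members apart from other genes. These motifs were chosen after the values were known, and a search of these letters describes the windows and not the binding of any factor.

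**Figure D1:**
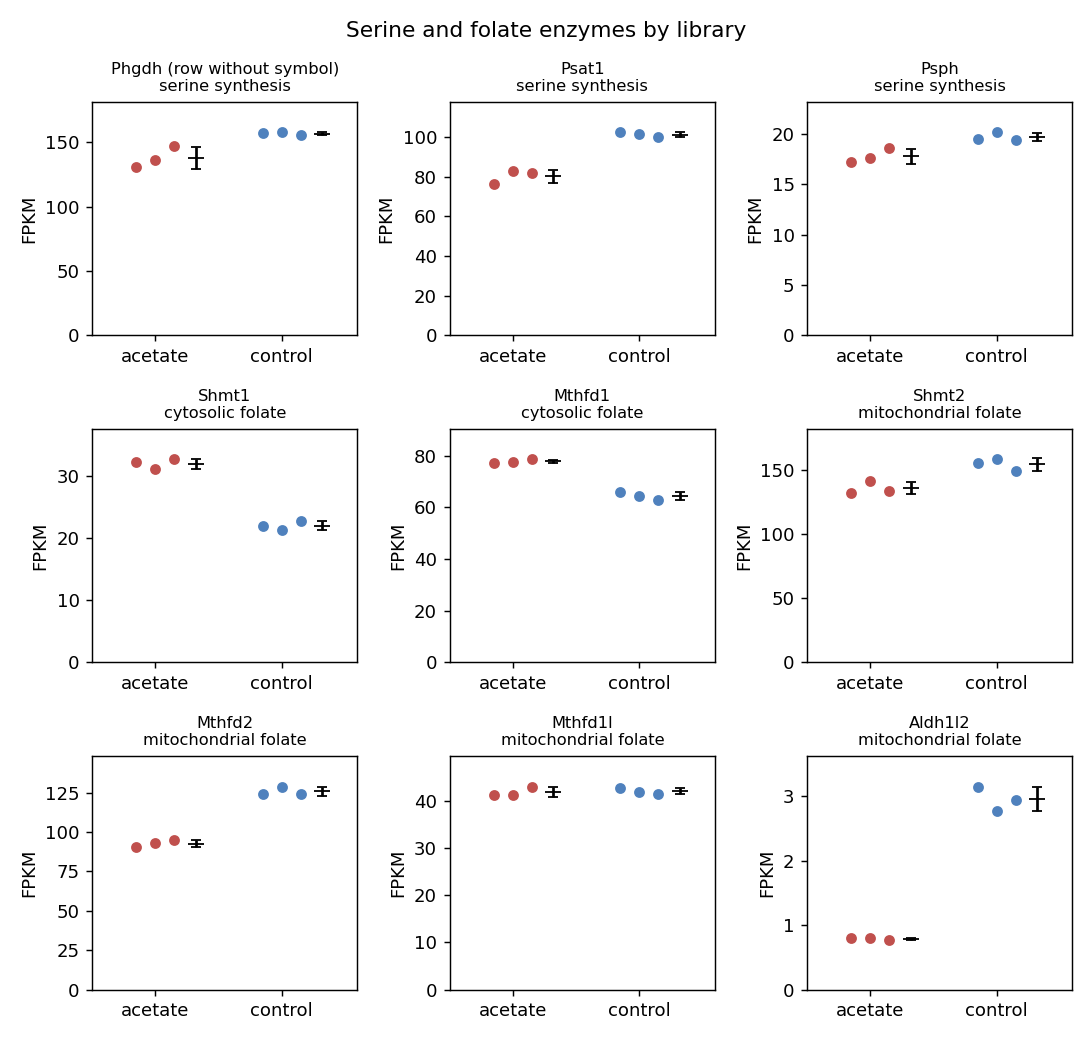
FPKM of each enzyme in every library, on linear axes that start at 0, with acetate libraries in red on the left and control libraries in blue on the right; black bars give the mean and SD of 3 libraries. Acetate libraries lie above the controls for Shmt1 and Mthfd1 and below them for 6 others, and the groups overlap for Mthfd1l.

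In the serine synthesis branch, Phgdh encodes phosphoglycerate dehydrogenase, which catalyses its first step. Its row, on chromosome 3 from 102981117 to 103012533 in the C57BL/6NJ positions the table gives, stood at 130.7, 136.1 and 147.1 FPKM with acetate, against 157.3, 157.9 and 155.5 FPKM in controls. The acetate libraries were all lower and spread more widely than the controls. The fall was -0.19 on the log2 scale (SE 0.048, limma adjusted p = 0.0194). It missed the threshold without acetate replicate 2 (adjusted p = 0.0676), without control replicate 1 (adjusted p = 0.0567) or without control replicate 2 (adjusted p = 0.0546).
A further 10 rows described as Phgdh are processed pseudogenes. The most abundant of them averaged 7.74 ± 0.0552 FPKM with acetate and 8.42 ± 1.08 FPKM in controls, so the division of reads between the gene and its copies is uncertain.

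Psat1, phosphoserine aminotransferase, takes the second step and lies on chromosome 19 from 14169427 to 14211761. It was at 76.6, 82.7 and 81.7 FPKM with acetate and at 102.5, 101.5 and 99.9 FPKM in controls. No acetate library came near the lowest control, and the fall was -0.33 on the log2 scale (SE 0.04, limma adjusted p = 0.000932).
Psph, the phosphatase of the last step, on chromosome 5 from 139017506 to 139041952, was at 17.2, 17.6 and 18.6 FPKM with acetate and at 19.5, 20.2 and 19.4 FPKM in controls. Its groups were apart by less than 1 FPKM. The fall was -0.14 on the log2 scale (limma adjusted p = 0.037), and the call was lost when acetate replicate 1 or 2 or any control library was left out (adjusted p = 0.0743 to 0.109).
Psph also shares 452 bases with an opposite-strand row described as Cct6a, a chaperonin subunit, at 236.1 ± 3.72 FPKM with acetate and 219.4 ± 6.81 FPKM in controls. How strand was handled in counting is not given in the sources used here, so reads of the shared stretch cannot be told apart.

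Of the cytosolic folate enzymes, Shmt1, cytosolic serine hydroxymethyltransferase, lies on chromosome 11 from 62629793 to 62654758. It stood at 32.2, 31.1 and 32.7 FPKM with acetate, against 22.0, 21.3 and 22.7 FPKM in controls. Each acetate library was well above each control, with a log2 change of 0.52 (SE 0.04, limma adjusted p = 0.000192), the rank 170 from the top among 10867 genes. Its last 184 bases overlap Smcr8 on the opposite strand, which was at 16.8 ± 0.996 FPKM with acetate and 16.5 ± 0.733 FPKM in controls (limma adjusted p = 0.777).
Mthfd1, which in mammals joins synthetase, cyclohydrolase and dehydrogenase activities in 1 cytosolic protein, lies on chromosome 12 from 78697870 to 78768187. With acetate it was at 77.2, 77.5 and 78.5 FPKM, against 65.8, 64.3 and 62.9 FPKM in controls. The groups did not overlap, and the log2 change was 0.27 (SE 0.034, limma adjusted p = 0.00107).

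In the mitochondrial arm, Shmt2, the mitochondrial serine hydroxymethyltransferase, lies on chromosome 10 from 135578368 to 135584750. Its values were 132.0, 141.3 and 133.7 FPKM with acetate and 155.4, 157.9 and 148.8 FPKM in controls. The highest acetate library was below the lowest control, and the log2 change was -0.18 (SE 0.042, limma adjusted p = 0.0127).
Mthfd2, the mitochondrial dehydrogenase and cyclohydrolase that is strongly expressed in dividing cells, lies on chromosome 6 from 86620683 to 86640860. It stood at 90.2, 92.8 and 94.7 FPKM with acetate and at 124.2, 128.8 and 124.3 FPKM in controls. That was the widest separation in FPKM of any member, with a log2 change of -0.44 (SE 0.036, limma adjusted p = 0.000238).
An unnamed same-strand row within Mthfd2 averaged 0.902 ± 0.147 FPKM with acetate and 1.44 ± 0.308 FPKM in controls, small beside the gene itself.

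Mthfd1l is the mitochondrial synthetase that releases formate, and it lies on chromosome 10 from 922217 to 1147440. It was at 41.2, 41.1 and 43.0 FPKM with acetate and at 42.6, 41.9 and 41.4 FPKM in controls. Its groups overlapped, and the log2 change of -0.01 had a 95% confidence interval from -0.09 to 0.08 (limma adjusted p = 0.917). A change of the size seen in Shmt2 lies outside that interval.
Aldh1l2 is the mitochondrial dehydrogenase that oxidises formyl-tetrahydrofolate to carbon dioxide and makes NADPH, and it lies on chromosome 10 from 87199058 to 87248525. It was the least abundant member, at 0.799, 0.794 and 0.768 FPKM with acetate and at 3.15, 2.77 and 2.95 FPKM in controls, from means of 117 and 440 reads. The acetate libraries clustered tightly with a mean 3.76-fold lower than that of the controls. Its log2 change of -1.15 (SE 0.078, limma adjusted p = 0.00012) was the rank 26 from the bottom among 10867 genes, and it became -1.78 with a pseudocount of 0.1, since adding 1 compresses low values. Aldh1l2 passed the filter through its control libraries, so this rank is among genes it joined through the group where it was high.

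**Figure D2:**
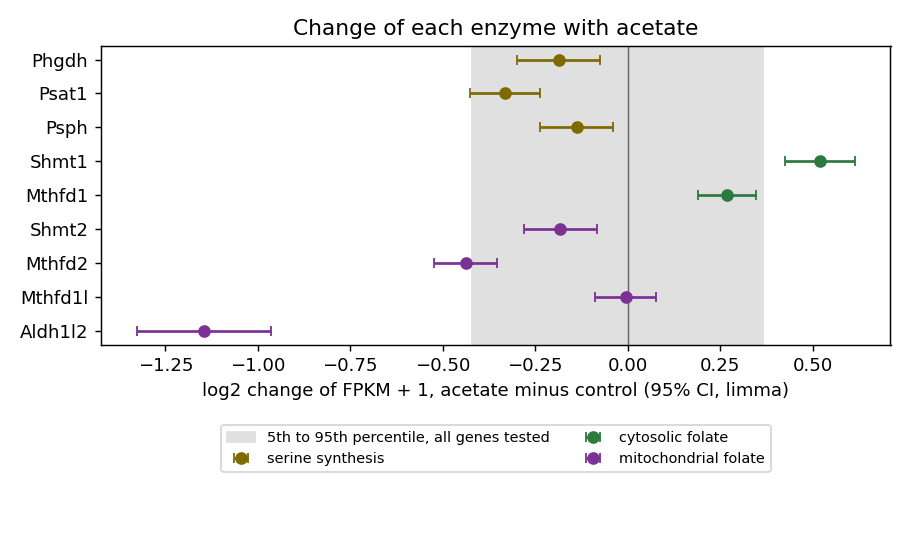
Change of each enzyme on the log2(FPKM + 1) scale, acetate minus control, as points with 95% confidence intervals from limma, coloured by branch; the grey band holds the 5th to 95th percentile of all 10867 genes tested, -0.42 to 0.37. Shmt1 at 0.52 lies above the band, Mthfd2 at -0.44 and Aldh1l2 at -1.15 lie below it, and the other 6 lie inside it.

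Ordered by level, the 9 genes held the same order in both groups. FPKM is per length, so levels compare between genes only as far as the deposited gene lengths fit the transcripts present. Phgdh came first at a mean of 137.9 FPKM with acetate and 156.9 FPKM in controls, with Shmt2 next at 135.6 FPKM with acetate and 154.1 FPKM in controls, and the ranges of these 2 overlapped in both groups. Mthfd2 followed at 92.6 ± 2.24 FPKM with acetate and 125.8 ± 2.64 FPKM in controls. Psat1 and Mthfd1 overlapped with acetate, at 80.4 ± 3.29 and 77.7 ± 0.676 FPKM, but were apart in controls, at 101.3 ± 1.3 and 64.3 ± 1.44 FPKM. Mthfd1l, Shmt1, Psph and Aldh1l2 came after them, with ranges apart from their neighbours in both groups.

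Set against the cytosolic enzyme that handles the same reaction, each mitochondrial enzyme was relatively lower with acetate. The FPKM ratio Shmt2/Shmt1 was 4.10, 4.55 and 4.09 with acetate, against 7.07, 7.42 and 6.55 in controls. Mthfd2/Mthfd1 was 1.169, 1.197 and 1.207 with acetate and 1.89, 2.00 and 1.98 in controls. Mthfd1l/Mthfd1 was 0.534, 0.531 and 0.548 with acetate and 0.648, 0.651 and 0.657 in controls. In these 3 ratios every acetate library was below every control library. In the last of them Mthfd1 was the gene that changed, and Mthfd1l did not pass.
The ratio fell 1.65-fold for Shmt2/Shmt1, 1.64-fold for Mthfd2/Mthfd1 and 1.21-fold for Mthfd1l/Mthfd1. Aldh1l2/Aldh1l1 was 2.21, 3.11 and 1.33 with acetate and 6.68, 5.47 and 10.004 in controls, a 3.42-fold difference that rests on means of 61 and 67 reads of Aldh1l1. Each of the 4 ratios gave p = 0.1 in an exact two-sided permutation test over the 6 libraries (0.1 after Benjamini-Hochberg adjustment), which is the smallest p that 3 against 3 can give. A result below 0.05 was therefore not possible. For Shmt2/Shmt1 and Mthfd2/Mthfd1 the separation was already fixed by the values of the genes themselves. Mthfd2/Mthfd1 and Mthfd1l/Mthfd1 share a denominator, so the 4 p-values add no separate support. Summed over the arm, as a description, the 4 mitochondrial enzymes stood at 270.8 ± 5.99 FPKM with acetate and 324.7 ± 7 FPKM in controls, and the 2 cytosolic ones at 109.7 ± 1.31 FPKM with acetate and 86.3 ± 1.25 FPKM in controls.

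**Figure D3:**
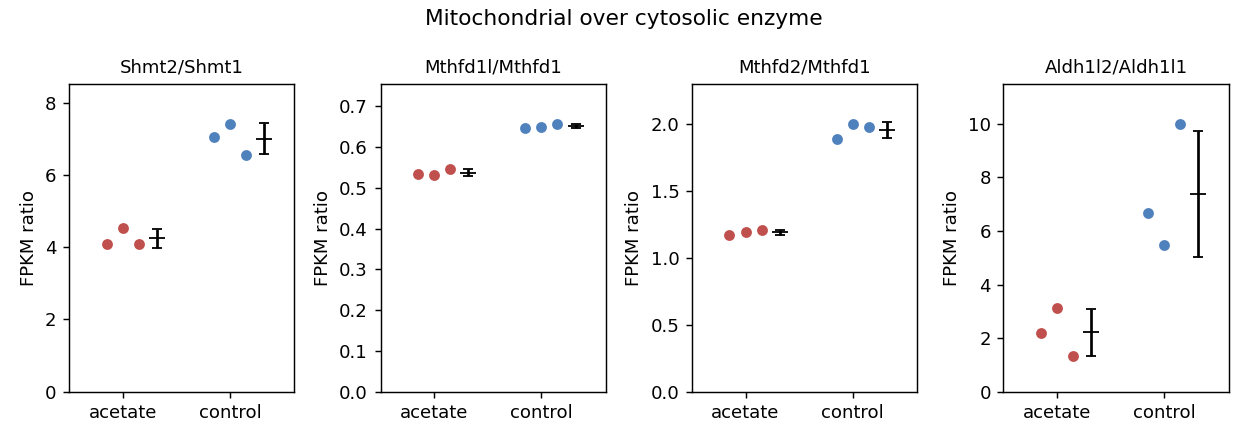
FPKM of a mitochondrial enzyme divided by that of its cytosolic counterpart in every library, acetate libraries in red on the left and controls in blue on the right, with the mean and SD of 3 libraries in black; each axis starts at 0. All acetate ratios lie below all control ratios in the 4 panels, as in 4.09 to 4.55 against 6.55 to 7.42 for Shmt2/Shmt1.

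The direction of both arms held under other scalings. After rescaling to TPM, quantile normalization or cyclic loess, the log2 change of Mthfd1 was 0.18 to 0.20, the lowest it took, and it stayed past the threshold, as did Shmt1, Shmt2, Mthfd2, Psat1 and Aldh1l2. Several falls were larger there than as deposited: that of Shmt2 was -0.29 to -0.26, that of Phgdh -0.29 to -0.26 and that of Psph -0.22 to -0.17. Mthfd1l was at -0.09 to -0.05 and did not pass (limma adjusted p = 0.0767 to 0.243). The share of higher genes among all calls was 56.6% as deposited and 35.2% after rescaling to TPM, where 12704 genes reached the filter of 1, or 36.4% over the 10867 genes tested as deposited.

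Other genes of the pathway were read from a list of 39, of which 35 had a row of that symbol, 26 were tested and 9 were below the filter. Of those tested, 10 rose, 5 fell and 11 did not pass. Their median log2 change was 0.11, and the background for these counts is the 22.0% higher and 16.9% lower given above. Of 4 tested genes of folate transport and retention 3 rose. Slc25a32, the carrier of folate into mitochondria, rose to 23.4 ± 1.09 FPKM, against 17.9 ± 0.779 FPKM in controls (limma adjusted p = 0.0014). Fpgs, which adds the glutamate tail that keeps folate in the cell, was at 15.2 ± 1.14 and 11.7 ± 0.641 FPKM in acetate and control cells, and Slc19a1, the reduced folate carrier of the plasma membrane, at 17.8 ± 0.64 FPKM with acetate and 14.8 ± 1.21 FPKM in controls. The call of Slc19a1 was lost after rescaling to TPM (limma adjusted p = 0.0534) and with no filter (limma adjusted p = 0.0518). In TPM over the genes tested as deposited it was kept (limma adjusted p = 0.0453). Ggh, which removes the glutamate tail, was at 5.09 ± 0.553 FPKM with acetate and 4.79 ± 0.574 FPKM in controls and did not pass.

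Among 6 tested genes of folate use and the methionine cycle, 2 rose and 4 did not pass, against 22.0% of all genes tested called higher. Mat2a, which makes S-adenosylmethionine from methionine, rose 1.61-fold to 116.8 ± 0.884 FPKM, against 72.5 ± 1.13 FPKM in controls (limma adjusted p = 5.96e-05). Atic, which uses formyl-tetrahydrofolate late in purine synthesis, rose to 47.5 ± 1.13 FPKM, against 40.5 ± 0.777 FPKM in controls. Gart, an earlier enzyme of purine synthesis that also uses formyl-tetrahydrofolate, was at 82.4 ± 1.98 FPKM with acetate and 76.4 ± 2.24 FPKM in controls and did not pass (limma adjusted p = 0.0562). Mtr, methionine synthase, was at 14.1 ± 0.814 FPKM with acetate and 12.9 ± 0.477 FPKM in controls and did not pass.
Both listed paralogs of the members were below the filter. Mthfd2l, the second mitochondrial dehydrogenase, was at 0.933 ± 0.159 FPKM with acetate and 0.905 ± 0.0508 FPKM in controls, and Aldh1l1, the cytosolic counterpart of Aldh1l2, at 0.399 ± 0.165 FPKM with acetate and 0.425 ± 0.114 FPKM in controls. Run with no filter, they had limma adjusted p = 0.921 and adjusted p = 0.891.

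The glycine cleavage system, a mitochondrial complex that also feeds carbon to folate, divided. Amt, its aminomethyltransferase, fell to 1.85 ± 0.269 FPKM, against 3.14 ± 0.148 FPKM in controls (limma adjusted p = 0.0027). Gcsh, its lipoyl carrier protein, was higher at 45.9 ± 2.56 FPKM, against 40.8 ± 1.24 FPKM in controls (limma adjusted p = 0.0291), a call lost after rescaling to TPM (adjusted p = 0.161), with quantile normalization or cyclic loess, without the filter, and without acetate replicate 2 or 3 or control replicate 1 or 2 (adjusted p = 0.0587 to 0.0907). Dld, a subunit shared with other complexes, was at 87.5 ± 2.23 and 93.3 ± 3.18 FPKM in acetate and control cells and did not pass as deposited, but was lower after rescaling to TPM, quantile normalization or cyclic loess (limma adjusted p = 0.0106, 0.011 and 0.00562). Gldc, the decarboxylase of the complex, was below the filter at 0.774 ± 0.205 FPKM with acetate and 0.833 ± 0.103 FPKM in controls.

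Of 8 serine and glycine transporters 4 fell and 2 rose, against 16.9% of all genes tested called lower and 22.0% called higher. The largest falls were in plasma membrane carriers: Slc1a4, which carries serine and other small neutral amino acids, with a log2 change of -1.28, and Slc6a9, a glycine transporter, with -1.33. Slc6a9 was at 1.33, 1.24 and 1.40 FPKM with acetate and at 5.60, 4.36 and 4.62 FPKM in controls. Slc1a5, a carrier of glutamine and other neutral amino acids, fell to 122.3 ± 1.1 FPKM, against 148.8 ± 6.07 FPKM in controls, and Slc38a2, a sodium-coupled neutral amino acid carrier, to 36.6 ± 1.184 FPKM, against 43.5 ± 0.806 FPKM in controls. The 2 that rose, named after their values were seen, were the mitochondrial sideroflexins Sfxn1, a serine carrier of the inner membrane, at 83.3 ± 2.99 and 70.7 ± 1.63 FPKM in acetate and control cells, and Sfxn2, at 8.51 ± 0.341 FPKM with acetate and 7.12 ± 0.473 FPKM in controls. Both calls were lost after rescaling to TPM (limma adjusted p = 0.0533 and 0.0978). In TPM over the genes tested as deposited, that of Sfxn1 was kept (adjusted p = 0.0459) and that of Sfxn2 was lost (adjusted p = 0.0846). The call of Sfxn1 was also lost with quantile normalization and cyclic loess. That of Sfxn2 was also lost without control replicate 2 or 3 (adjusted p = 0.0529 to 0.0535).

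Of 5 tested genes that use serine 2 rose, both in lipid synthesis, against 22.0% of all genes tested called higher. Sptlc1, a subunit of the serine palmitoyltransferase that begins sphingolipid synthesis, was at 29.0 ± 0.299 FPKM with acetate and 24.3 ± 0.896 FPKM in controls, and Ptdss1, which makes phosphatidylserine, at 25.8 ± 1.45 FPKM with acetate and 21.4 ± 0.372 FPKM in controls. Sptlc2, the partner of Sptlc1, was at 11.4 ± 0.899 FPKM with acetate and 10.4 ± 0.522 FPKM in controls and did not pass. Gcat, which acts in threonine breakdown to glycine, was at 1.78 ± 0.226 FPKM with acetate and 1.48 ± 0.156 FPKM in controls and did not pass either.
The regulators moved apart. Atf4 stood at 165.6, 177.9 and 177.6 FPKM with acetate, against 251.1, 264.6 and 249.6 FPKM in controls, a log2 change of -0.55 (limma adjusted p = 0.000226). Myc, known in other cells to raise serine and folate genes, was at 143.9, 137.7 and 130.9 FPKM with acetate, against 107.7, 108.2 and 102.0 FPKM in controls, a log2 change of 0.37 (limma adjusted p = 0.00105). Whether either bears on the enzymes was not tested.

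**Figure D4:**
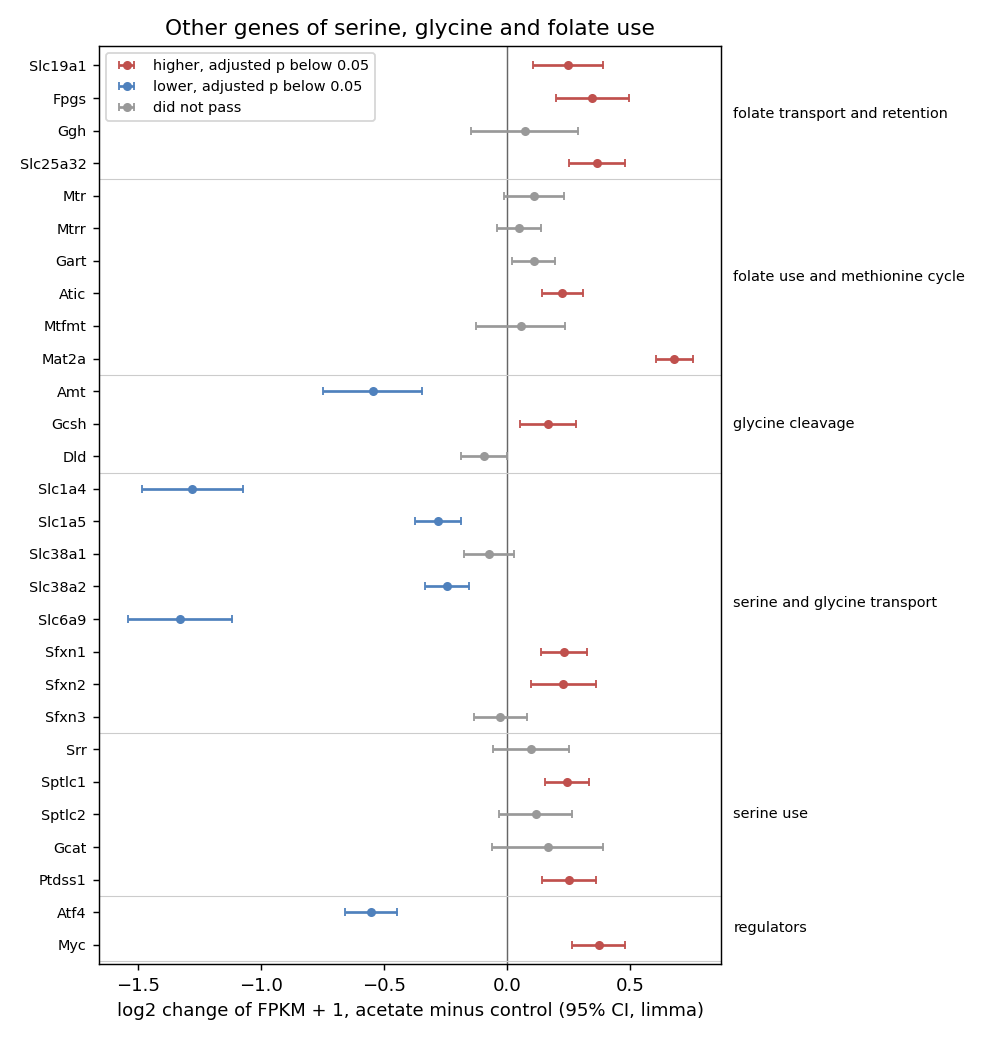
Change of the 26 tested genes of the pathway list and of Atf4 and Myc on the log2(FPKM + 1) scale, acetate minus control, with 95% confidence intervals from limma; red marks genes called higher, blue genes called lower and grey those that did not pass. Slc1a4 and Slc6a9 lie farthest to the left, at -1.28 and -1.33, and Mat2a farthest to the right, at 0.68.

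The genes whose profile over the 6 libraries was most like that of a member were found by the root mean square difference of log2(FPKM + 1), each gene centred on its own mean. Nearest to Mthfd2 were Eprs (0.023), the glutamyl-prolyl-tRNA synthetase, Cd200 (0.026), a surface glycoprotein, and Tnfrsf13b (0.026), a receptor of the TNF family. Eprs was at 28.1 ± 0.0152 FPKM with acetate and 38.1 ± 0.478 FPKM in controls. Nearest to Shmt1 were Tatdn2 (0.017), Chst2 (0.03), a sulfotransferase, and St6galnac4 (0.031), a sialyltransferase. Tatdn2 was at 25.3 ± 0.481 FPKM with acetate and 17.6 ± 0.494 FPKM in controls. Chst2 was near the filter, at 1.71 ± 0.0865 FPKM with acetate and 0.942 ± 0.0696 FPKM in controls. It passed through its acetate libraries, and adding 1 compresses its change. The 6 libraries form 2 groups, so the size of the group difference enters this measure.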

How the data were processed

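TruSeq libraries of total RNA were read as paired ends, per the labels' protocols. The submitters' processing notes name cutadapt 1.18, HISAT2 2.1.0 and the build mm10. The authors deposited FPKM values for 41095 gene rows with C57BL/6NJ identifiers and positions, which were not mixed with GRCm38.p6 coordinates, and 1 line of the table held no values. FPKM times gene length gave whole reads in each library for 100.0% of values within 0.01 reads, and depths come from these. Positions are the table's own. The counting tool is not given in the sources used here.

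Genes that averaged 1 FPKM or more were tested with limma 3.58.1 in R 4.3.3 on log2(FPKM + 1), with group as the sole term and an abundance trend in the variance, two-sided, with Benjamini-Hochberg adjustment over 10867 genes. The fit was also run on simulated reads to check the code. Few genes changed in them and their spread was set in advance, so they do not measure its error rate in these data. Ratios used an exact permutation test (scipy 1.17.1). Intervals and SDs cover the spread between libraries of a group, which may be technical. Members and lists were chosen with earlier results of these data known. The text names all members, up to 4 genes of lowest p per pathway list, listed paralogs, Atf4, Myc and 3 genes most like Mthfd2 and Shmt1. Outside that rule it also names Sfxn1, Sfxn2, Sfxn3, Gldc, Mtrr and Mtfmt, along with cell markers and genes that overlap members. Alternatives were the pseudocount, filter, scaling (TPM also over the genes tested as deposited, added after seeing the data), trend, each library left out and a replicate block. Some genes of the lists are not reported here.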

Additional observations from a re-analysis of the deposited data

How the results depend on the processing

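Of the 9 members, Psat1, Shmt1, Mthfd1, Shmt2, Mthfd2 and Aldh1l2 kept their direction and their call under each alternative run, 15 for the first 5 and 14 for Aldh1l2, which was below a filter of 5 FPKM. The log2 change of Phgdh was -0.19 and missed the threshold with no filter (adjusted p = 0.0544), and ranged from -0.23 to -0.15 with a library left out. That of Psph was -0.14 and missed it with no filter (adjusted p = 0.0627), with no trend (adjusted p = 0.0544) and with the replicate block (-0.14, adjusted p = 0.0728), and ranged from -0.17 to -0.11 with a library left out. That of Mthfd1l, not called, ranged from -0.0254 to 0.00572 with a library left out and was -0.0811 after rescaling to TPM, -0.0536 with quantile normalization and -0.0859 with cyclic loess (adjusted p = 0.126, 0.243 and 0.0767). Genes higher with acetate numbered 2393, and 1356 after rescaling to TPM, where 2500 were lower and 12704 genes were tested; over the 10867 genes tested as deposited, an alternative chosen after seeing the data, TPM gave 1396 higher and 2443 lower. With the replicate block 3600 genes were called, against 4229 without it; deviations of same-numbered libraries correlated at -0.0537, 0.0258 and -0.0389, so the numbers were not taken as pairs. Among uncalled pathway genes, both TPM fits turned Mtrr to -0.0247 and Mtfmt to -0.0126, and leaving out a library turned Ggh (-0.00065 to 0.14), Mtfmt (-0.0233 to 0.106) and Sfxn3 (-0.0606 to 0.00574). The 4 ratios kept their direction throughout, with Aldh1l2/Aldh1l1 at -1.12 on the log2 scale for FPKM + 1 and -1.77 for FPKM. The cause of these changes was not tested. Aldh1l1 rests on means of 61 and 67 reads.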
